A study of Mus musculus with 66 samples.

Results

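The glycolytic enzymes of the mouse testis were followed through 10 genes that make up somatic and germ cell forms of the same reactions: Pgk1 and Pgk2, Gapdh and Gapdhs, Pgam1 and Pgam2, Aldoa and Aldoart2, and Eno1 and Hk1, which were listed without a germ cell partner. Members were all probe sets, other than the array controls, that the array annotation assigned to one of these genes alone. Of 36899 probe sets, 11 met this rule, 10 of them on the first of 3 array types, and they stood for 8 of the 10 genes. Gapdh and Eno1 were absent under the rule, since no probe set named either of them alone. The germ cell forms had 5 probe sets (Pgk2, Pgam2, Aldoart2 and 2 for Gapdhs) and the somatic forms had 6 (Pgam1, Hk1, 2 for Pgk1 and 2 for Aldoa).

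Glycolysis splits glucose into pyruvate in a fixed order of enzyme steps in the cytosol. Male germ cells replace several of the ubiquitous enzymes with forms encoded by other genes, and in mouse sperm much of the pathway is bound to the fibrous sheath of the tail. Pgk2 is an autosomal, intronless copy of the X-linked Pgk1, and Gapdhs encodes the sperm form of glyceraldehyde-3-phosphate dehydrogenase.

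Total RNA of whole testes from BL/6-129 mice was measured on postnatal days 0, 3, 6, 8, 10, 14, 18, 20, 30, 35 and 56. Each day had 2 numbered samples, and the labels name no treatment, mutation or sort. Each day and number has an array of each of 3 types, called A, B and C here, which gives 66 arrays. Whether a number was the same RNA on all types is not stated, and the middle Gapdh control ran opposite ways at some days. At day 0 it was 4013.8 and 2600.5 (samples 1 and 2) on type A, 5255.0 and 9999.6 on type B and 10916.3 and 17885.7 on type C, and at day 20 it was 2201.7 and 1276.9, 2415.7 and 5174.4, and 4439.3 and 8643.8. Numbers are therefore not matched between types below, and every member tested lies on type A. Nothing in the labels tells if same-day samples were separate animals, pools or repeats, so the p-values measure only the spread between these samples. Days 30, 35 and 56 (6 samples), which follow the first appearance of spermatids in the mouse, were set against days 0, 3, 6, 8 and 10 (10 samples), which precede it.

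On type A, where 10 of the 11 member probe sets lie, same-day samples correlated at 0.930 to 0.980 in log2 signal across probe sets, and day 0 (0.930) and day 20 (0.936) stood lowest. The summed signal of 8 spermatid markers was 32673 to 55581 on days 30 to 56 and 285 to 1537 on days 0 to 10, and that of 4 spermatocyte markers was 2834 to 3184 on days 30 to 56 and 49.0 to 345.6 on days 0 to 10. Within days 0 to 10 the spermatid sum was 1536.9 in the second sample of day 6 and 1003.0 in the first of day 3. It was at most 449.0 in the other samples of days 0 to 10. Markers of Sertoli cells, the somatic support cells of the tubule, summed to 2030 to 2592 on days 30 to 56 and to 3970 to 7048 on days 0 to 10. Those of Leydig cells overlapped, at 1596 to 2316 on days 30 to 56 and 708 to 3186 on days 0 to 10. Erythroid markers summed to 558 to 945 on days 30 to 56 and to 1823 to 8574 on days 0 to 10, from 5 markers carried on type A, with Hba-a1 the brightest and 2 of the 5 under 50 on every array.

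The upstream sequences of the members that moved apart are shown first, since the germ cell and somatic forms of a pair differed in their CG content. Each is the stretch of 250 bases before the RefSeq transcript start (build GRCm38.p6), read 5′ to 3′ in the direction of the gene, with every CG dinucleotide in capitals. The windows are chr17:40208610-40208859 (minus strand) for Pgk2, chrX:106186850-106187099 (plus strand) for Pgk1, chr11:5803797-5804046 (minus strand) for Pgam2, chr19:41911621-41911870 (plus strand) for Pgam1, chr7:30743682-30743931 (minus strand, the first of 2 annotated starts) for Gapdhs and chr12:55564955-55565204 (plus strand) for Aldoart2.
Pgk2: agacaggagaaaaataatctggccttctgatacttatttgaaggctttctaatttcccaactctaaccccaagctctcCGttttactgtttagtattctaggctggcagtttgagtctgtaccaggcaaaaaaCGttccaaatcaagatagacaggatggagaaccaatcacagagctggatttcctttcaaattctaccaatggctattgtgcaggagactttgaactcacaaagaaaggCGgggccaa
Pgk1: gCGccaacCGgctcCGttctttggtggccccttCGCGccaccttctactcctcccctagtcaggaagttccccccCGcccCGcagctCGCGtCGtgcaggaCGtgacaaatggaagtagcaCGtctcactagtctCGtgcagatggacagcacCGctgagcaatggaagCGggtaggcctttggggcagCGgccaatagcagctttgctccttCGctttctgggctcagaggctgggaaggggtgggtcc
Pgam2: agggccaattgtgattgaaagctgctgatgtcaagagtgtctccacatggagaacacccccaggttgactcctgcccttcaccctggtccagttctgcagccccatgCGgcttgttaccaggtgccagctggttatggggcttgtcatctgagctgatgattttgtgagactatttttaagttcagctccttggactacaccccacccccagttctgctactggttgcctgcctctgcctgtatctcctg
Pgam1: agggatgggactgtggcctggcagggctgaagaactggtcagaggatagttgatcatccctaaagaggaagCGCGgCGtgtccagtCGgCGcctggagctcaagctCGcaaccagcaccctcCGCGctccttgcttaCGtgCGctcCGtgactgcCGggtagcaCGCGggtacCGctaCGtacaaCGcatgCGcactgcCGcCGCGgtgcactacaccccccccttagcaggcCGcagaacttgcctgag
Gapdhs: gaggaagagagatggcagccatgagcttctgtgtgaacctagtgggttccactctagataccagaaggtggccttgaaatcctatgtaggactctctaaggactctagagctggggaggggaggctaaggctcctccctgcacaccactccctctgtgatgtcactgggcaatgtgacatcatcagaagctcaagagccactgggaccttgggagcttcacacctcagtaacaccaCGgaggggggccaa
Aldoart2: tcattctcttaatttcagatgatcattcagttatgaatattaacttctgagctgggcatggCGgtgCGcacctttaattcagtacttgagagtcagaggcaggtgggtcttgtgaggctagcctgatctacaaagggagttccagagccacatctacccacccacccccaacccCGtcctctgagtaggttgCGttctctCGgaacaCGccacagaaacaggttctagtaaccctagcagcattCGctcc

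The Pgk2 window held 3 CG dinucleotides and 42% G or C, against 17 and 62.8% in the Pgk1 window. The Pgam2 window held 1 CG and 53.2% G or C, against 22 and 64% in the Pgam1 window. Gapdhs held 1 CG at its first start and 0 at its second, and Aldoart2 held 7. Over 32841 RefSeq windows of this length the median was 6 CG (quartiles 2 and 16) and 52.4% G or C, so the Pgk2, Pgam2 and Gapdhs windows lay below that median in CG count, Aldoart2 just above it, and Pgk1 and Pgam1 beyond the upper quartile. Somatic windows were not all alike: Aldoa held 0, 21 and 19 CG at its 3 annotated starts, of which the last 2 have windows that overlap, and Hk1 held 1 and 14 at its 2 starts.

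Letters of 4 short motifs were searched on both strands. They were the cyclic AMP response element TGACGTCA, the shorter TGACG that any such element contains, the GC box as GGGCGG, and the TATA box as TATAAA. None of them occurred in the 5 windows of the germ cell forms. GGGCGG occurred once in the Pgk1 window, on the opposite strand 176 bases before the start, and 3 times in all before the second and the last Aldoa start, whose windows overlap and share 2 of these matches. Of all 32841 windows, 1.547% held TGACGTCA, 17.77% TGACG, 32.749% GGGCGG and 12.369% TATAAA. A match is only a match of letters, and its absence says nothing of any factor.

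Values below are scaled array signals, which the authors had set to a common mean on every array, and changes are on the scale log2(signal + 16). A probe set was tested if its signal reached 50 on at least 2 of the 22 arrays of its type, and was called if its adjusted p was under 0.05 and its change at least 2-fold on the shifted scale. Of the 11 members 10 were tested. Pgk2, Pgam2 and the Gapdhs probe set without a suffix reached 50 on none of the 10 arrays of days 0 to 10 and were tested only through the later days. Having passed through the days on which they are high, these 3 had to differ, so their counts and their comparisons with the low days are a description, given with no p. With every signal under 32 set to 32, which lies above all their signals of days 0 to 10, their changes on days 30 to 56 against days 0 to 10 were 5.29 (Pgk2), 6.28 (Pgam2) and 6.59 (Gapdhs) on the log2 scale. In whole testis, fewer cells of a type and less RNA per cell cannot be told apart. Signals of different probe sets are not on one scale, so only changes are compared between genes.

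Pgk2, the germ cell form of phosphoglycerate kinase, which makes ATP in the second stage of glycolysis, was near background up to day 14. Its signals were 3.3 and 9.1 at day 0, 3.8 and 1.8 at day 3, 9.6 and 7.2 at day 6, 5.6 and 2.6 at day 8, 2.5 and 5.1 at day 10, and 9.2 and 7.1 at day 14. They were 62.8 and 180.4 at day 18, 77.5 and 194.9 at day 20, 1071.6 and 942.4 at day 30, 1394.4 and 1342.8 at day 35, and 1308.7 and 1534.5 at day 56. Every sample from day 18 on lay above every sample up to day 14, and the samples of days 18 and 20 formed a step between the low and the high days. The change of Pgk2 on days 30 to 56 against days 0 to 10 was 5.92 ± 0.19 (log2 change ± SE), and 4.25 to 7.83 with pseudocounts from 64 to 1. Its change between days 14 and 20 was 2.54 ± 0.36. Between days 20 and 35, when both ages had measurable signals, it rose by 3.30 ± 0.36 (limma adjusted p = 5.88e-06).

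Pgam2, the phosphoglycerate mutase of muscle, which germ cells also use, was far above its early signals by day 18 and still below its late ones at day 20. Its 12 signals from day 0 to day 14 lay between 1.5 and 8.5. They were 393.4 and 1082.0 at day 18, 1832.7 and 1227.2 at day 20, 2398.3 and 2264.2 at day 30, 2635.4 and 2671.6 at day 35, and 2543.5 and 2419.7 at day 56. The gap between days 14 and 18 parted all low from all high samples, and both day 20 samples lay below all 6 of days 30 to 56. The change between days 14 and 20 was 6.36 ± 0.32, and the further change of 0.82 ± 0.32 between days 20 and 35 was not called (adjusted p = 0.136). The change on days 30 to 56 against days 0 to 10 was 7.01 ± 0.17, and 5.24 to 9.24 with pseudocounts from 64 to 1.

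Because Pgam2 is a muscle enzyme, 15 skeletal muscle markers were set beside it. All 15 were carried on type A, and their summed signal was 813 to 902 on days 30 to 56 and 561 to 972 on days 0 to 10. The ranges overlapped and 6 of the 15 stayed under 50 on every array. Pvalb, a calcium buffer of fast muscle, was the brightest, at 359.8 to 486.3 on days 30 to 56 and 208.9 to 426.2 on days 0 to 10 with its brighter probe set on type A. Its other probe set on that type read only 2.4 to 10.8 on days 30 to 56 and 2.3 to 28.9 on days 0 to 10. Ckm, the muscle creatine kinase, read 43.3 to 73.0 on days 30 to 56 and 18.9 to 83.7 on days 0 to 10 with its brighter probe set on that type.

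Gapdhs stayed low through day 20 in both of its probe sets and was high from day 30 on. One has an r suffix, with which the array maker marked probes that did not meet its usual design rules, and the other has none. The r-suffixed probe set read 95.2 and 37.7 at day 14, 32.2 and 38.3 at day 18 and 48.8 and 32.8 at day 20, and 24.9 to 65.0 on days 0 to 10. It then read 3943.9 and 4747.7 at day 30, 5263.3 and 6008.6 at day 35, and 8928.3 and 7208.5 at day 56. The unsuffixed probe set did not exceed 18 on days 0 to 10 and read 14.5 and 6.4 at day 14, 8.8 and 35.7 at day 18, and 6.1 and 15.2 at day 20. It then read 3112.2 and 2960.6 at day 30, 4621.7 and 5234.9 at day 35, and 1929.2 and 1979.8 at day 56. Both separated every sample of days 30 to 56 from every earlier one. Between days 20 and 35 the r-suffixed probe set rose by 6.65 ± 0.33, and on days 30 to 56 against days 0 to 10 by 6.78 ± 0.17. Before day 30 it had reached 50 on 1 array of days 0 to 10 and 1 of days 14 to 20, just enough for the filter. Both of its day 20 signals and all but 1 of days 0 to 10 were under 50. Its changes are thus a description too, with no p. The changes of the unsuffixed one, also given with no p, were 7.55 ± 0.32 and 6.81 ± 0.17.

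The 2 Gapdhs probe sets parted at the last age. At day 56 against day 35 the r-suffixed probe set had a change of 0.51 ± 0.33 (adjusted p = 0.791) and the unsuffixed one a change of -1.32 ± 0.32 (adjusted p = 0.267), and neither was called. Both day 56 samples lay above both day 35 samples in the first and below them in the second. With 2 samples a day the difference between the probe sets was not tested. The second was called lower with a pseudocount of 64 (-1.30, adjusted p = 0.0033) and with a floor of 32 in place of the pseudocount (-1.33, adjusted p = 0.00506).

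**Figure D1:**
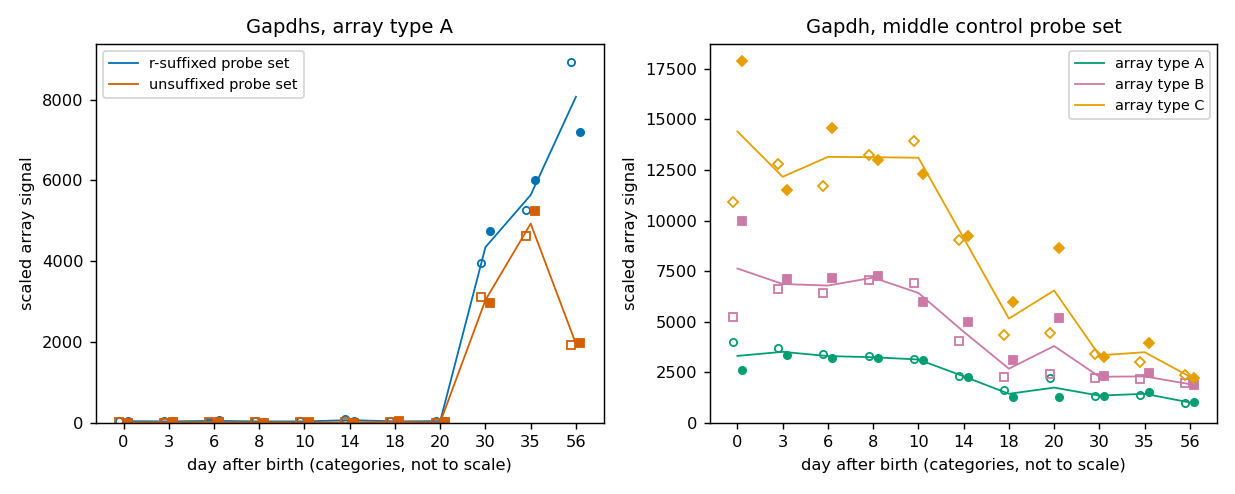
Scaled array signal (linear axes from 0) by day after birth for the 2 Gapdhs probe sets on array type A (left) and for the middle Gapdh control probe set on array types A, B and C (right); open and filled symbols are samples 1 and 2, lines join day means. The Gapdhs probe sets are low up to day 20 and high from day 30, and at day 56 one reads 8928.3 and 7208.5 while the other reads 1929.2 and 1979.8; the Gapdh control is lower on the later days on every type.

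The somatic partner Gapdh, the ubiquitous dehydrogenase, could be set beside Gapdhs only through the arrays' control probe sets and through probe sets that also name its pseudogenes. The middle control on type A read 1001 to 1515 (median 1344) on days 30 to 56 and 2600 to 4014 (median 3250) on days 0 to 10. The same control read 1868 to 2442 on days 30 to 56 and 5255 to 10000 on days 0 to 10 on type B, and 2210 to 3952 on days 30 to 56 and 10916 to 17886 on days 0 to 10 on type C. Later and earlier samples did not overlap on any type. The brightest shared probe set, which names Gapdh and 2 further loci, had a median of 296 on days 30 to 56 and 1459 on days 0 to 10. The other 2 shared probe sets were dim and overlapped, with medians of 111 on days 30 to 56 and 104 on days 0 to 10, and of 71.9 on days 30 to 56 and 67.7 on days 0 to 10. The ratio of the 3′ over the 5′ Gapdh control, a sign of RNA integrity, was 0.845 to 0.989 on days 30 to 56 and 0.669 to 0.995 on days 0 to 10 on type A. There it was lower in sample 1 than in sample 2 on every day from 3 to 35, for example 0.669 and 0.894 at day 8. On types B and C it was higher in sample 1 on every day from 3 to 20. These control probe sets were not part of the fit, and no test was made on them.

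Aldoart2, a retrogene copy of aldolase A that is active in mouse sperm, followed the days of Gapdhs. Its signals were 57.6 and 41.1 at day 14, 48.3 and 30.1 at day 18, 56.6 and 64.3 at day 20, 681.4 and 857.0 at day 30, 973.4 and 941.4 at day 35, and 747.0 and 698.7 at day 56, with 38.7 to 57.8 on days 0 to 10. The 6 late samples lay above all 16 others. It rose by 3.67 ± 0.23 between days 20 and 35 (adjusted p = 3.7e-09) and by 3.76 ± 0.12 on days 30 to 56 against days 0 to 10 (adjusted p = 3.05e-14).

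All 5 germ cell probe sets were called higher on days 30 to 56 against days 0 to 10, where 11.7% of the 26941 probe sets tested were called higher, and 2 of the somatic ones were called lower, where the share was 17.9%. Of these 5, Pgk2, Pgam2 and the unsuffixed Gapdhs probe set were tested only through later days, so the count of 5 is a description. Over all days the F-test, called on its adjusted p alone, passed for all 10 tested members and for 45.0% of all probe sets. Between days 14 and 20 the 2 members called higher were Pgk2 and Pgam2, with 5.29% of probe sets called higher and 6.37% lower. Both read far under 50 at day 14, so this count is a description as well. Between days 20 and 35 the 5 called higher were Pgk2, both Gapdhs probe sets, Aldoart2 and one for Aldoa, with 4.35% called higher and 2.70% lower. Both Gapdhs probe sets, under 50 at day 20, enter this count as a description too. No member was called between days 0 and 8 (0.995% of probe sets higher and 0.824% lower), days 8 and 14 (0.728% higher and 0.189% lower) or days 35 and 56 (0.00% higher and 0.0111% lower). At an unadjusted limma p under 0.05 these windows held 1 (Pgk1), 0 and 1 (the unsuffixed Gapdhs probe set) of the 10 members.

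The median of all probe sets shifted by -0.26 between days 30 to 56 and days 0 to 10, and by -0.03 after each array was scaled to the median of its type. The sizes of the germ cell changes depended on the pseudocount, since their low days were near 0. With pseudocounts of 1 and 64 the change of Gapdhs was 7.28 and 5.86 (r-suffixed) and 7.99 and 5.38 (unsuffixed), and that of Aldoart2 4.14 and 3.0. The values for Pgk2 and Pgam2 stand above.

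**Figure D2:**
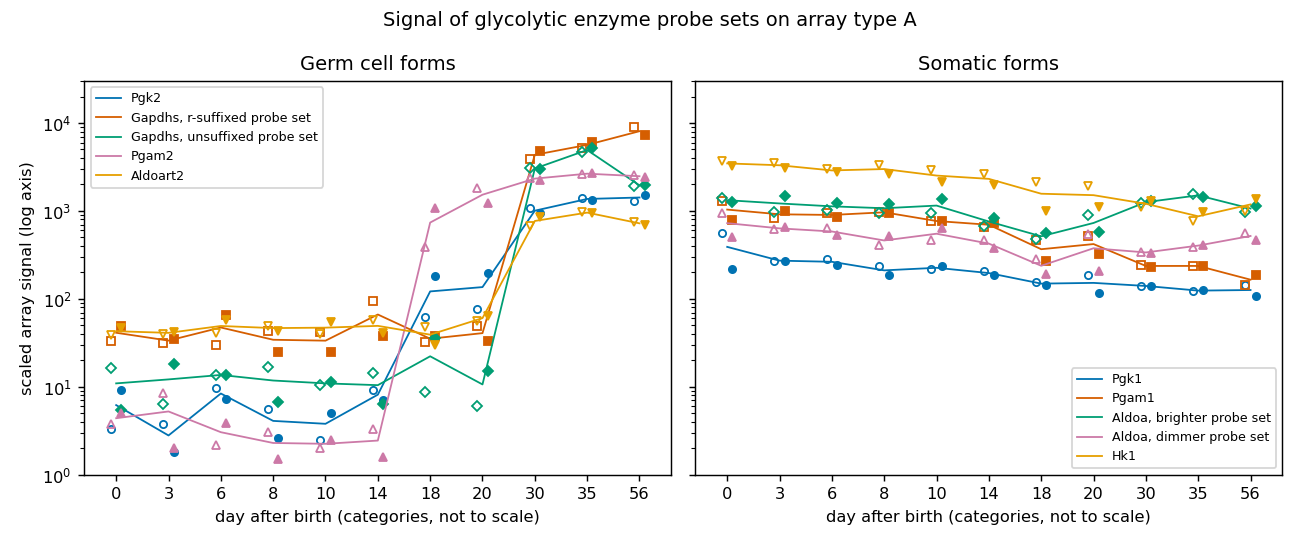
Scaled array signal on a log axis by day after birth for the 5 germ cell probe sets (left) and the 5 somatic probe sets on array type A (right); open and filled symbols are samples 1 and 2 of a day and lines join day means. Pgam2 and Pgk2 leave their low level at day 18, Gapdhs and Aldoart2 at day 30, and the somatic forms change by less.

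Pgam1, the widely expressed phosphoglycerate mutase, was the somatic member with the largest fall of the 5 tested probe sets. Its signals were 1287.1 and 785.2 at day 0, 837.9 and 994.0 at day 3, 939.0 and 861.5 at day 6, 980.1 and 950.5 at day 8, 770.8 and 765.6 at day 10, 663.9 and 728.8 at day 14, 466.8 and 267.4 at day 18, 516.2 and 324.0 at day 20, 244.0 and 229.8 at day 30, 234.9 and 239.2 at day 35, and 143.1 and 187.6 at day 56. Every sample of days 30 to 56 lay below every earlier one. Pgam1 fell by 2.03 ± 0.14 on the log2 scale on days 30 to 56 against days 0 to 10 (adjusted p = 9.57e-10). No single window was called, with changes of -0.74 ± 0.27 between days 14 and 20 (adjusted p = 0.0752) and -0.75 ± 0.27 between days 20 and 35 (adjusted p = 0.0999). Without the first sample of day 20 the window from day 14 was called (-1.07, adjusted p = 0.0249), and without the second sample of day 20 the window to day 35 was (-1.07, adjusted p = 0.0334).

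Hk1, hexokinase 1, which adds the first phosphate to glucose and for which a germ cell transcript from the same gene is known, was also lower on the late days. It read 1112.7 and 1299.4 at day 30, 768.6 and 970.0 at day 35 and 1002.3 and 1370.4 at day 56, against 2136.2 to 3659.7 (median 3029) on days 0 to 10. The samples of days 18 and 20 were far apart, at 2147.8 and 991.4 and at 1910.4 and 1112.4. Hk1 fell by 1.48 ± 0.17 on the log2 scale on days 30 to 56 against days 0 to 10 (adjusted p = 5.62e-07), with no overlap between those groups. The file does not say which Hk1 transcript the probe set reads.

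Pgk1, the X-linked housekeeping kinase, read 139.8 and 140.8 at day 30, 123.5 and 124.9 at day 35 and 143.9 and 108.4 at day 56, against 186.6 to 562.6 (median 238.1) on days 0 to 10. The groups did not overlap, and the first sample of day 0 (562.6) stood far above the second (217.8). The change of -0.92 ± 0.16 had an adjusted p of 7.69e-05 but was under 2-fold and so was not called. It was called with a floor of 32 (-1.004, adjusted p = 8.22e-05) and without the second sample of day 0 (-1.05, adjusted p = 4.72e-07). The other Pgk1 probe set, on type B, never exceeded 46.2 and was not tested, with 1.2 to 10.7 on days 30 to 56 and 11.3 to 46.2 on days 0 to 10.

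Aldoa, the aldolase of muscle, red cells and many other tissues, read lowest on days 14 to 20 in the brighter of its 2 probe sets. The signals were 679.6 and 836.9 at day 14, 474.1 and 555.3 at day 18, 890.9 and 569.1 at day 20, 1235.6 and 1282.7 at day 30, 1561.0 and 1448.2 at day 35, and 980.6 and 1150.4 at day 56, with 946.1 to 1459.7 on days 0 to 10. Days 14 to 20 lay below all other samples. The change on days 30 to 56 against days 0 to 10 was 0.11 ± 0.13 (adjusted p = 0.465), and -0.19 (adjusted p = 0.202) after quantile normalization. Between days 20 and 35 it rose by 1.06 ± 0.25 (adjusted p = 0.0117). That call was lost with median scaling (0.98, adjusted p = 0.0552), quantile normalization (0.95, adjusted p = 0.0169), and without the second sample of day 20 (0.74, adjusted p = 0.109), the first of day 35 (1.01, adjusted p = 0.0967) or the second of day 35 (1.11, adjusted p = 0.0609).

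The dimmer Aldoa probe set read 328.9 to 568.1 on days 30 to 56 and 409.5 to 950.7 on days 0 to 10, and these ranges overlapped. Its lowest samples were also those of day 18 and the second of day 20, at 284.2, 191.8 and 209.3. Its change of -0.47 ± 0.18 (adjusted p = 0.0339) was under 2-fold and not called, and no window was called. The f suffix of both Aldoa probe sets marks probes that may bind related transcripts, and whether they bind Aldoart2 or Aldoart1 RNA was not tested. Erythroid and Sertoli cell markers were lower on the late days, as given above, beside Pgam1, Hk1 and Pgk1, and their part in these values was not tested.

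The germ cell form was then set against its somatic partner within each array. The per-array log2 difference of Pgam2 and Pgam1 moved by 9.04, the change of 7.01 in Pgam2 less that of -2.03 in Pgam1. It ranged from 3.21 to 4.01 on days 30 to 56 (SD 0.30, n = 6) and from -6.04 to -5.12 on days 0 to 10 (SD 0.28, n = 10). That of Pgk2 and Pgk1 moved by 6.84, with 2.61 to 3.64 on days 30 to 56 (SD 0.38, n = 6) and -4.91 to -3.22 on days 0 to 10 (SD 0.47, n = 10). That of Aldoart2 and Aldoa (the brighter probe set) moved by 3.64, with -0.84 to -0.39 on days 30 to 56 (SD 0.15, n = 6) and -4.68 to -3.88 on days 0 to 10 (SD 0.25, n = 10). Only the movement can be read, since the probe sets of a pair have scales of their own.

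In each of the 3 pairs all samples of days 30 to 56 lay above all of days 0 to 10. For the pairs of Pgk2 and Pgam2 this separation follows from how those forms passed the filter, and no p is given. For Aldoart2 and Aldoa the exact two-sided permutation test gave p = 0.000125 (adjusted over the 3 pairs run 0.000125), which is 1 of 8008 divisions of the samples and the smallest p these groups allow. Each sample was moved singly, and the 2 samples of a day were not kept together. With days as the unit fewer divisions exist, so the smallest p would be larger. For Pgk2 and Pgk1 both day 14 samples lay above the highest early one (0.51), and days 18 and 20 lay below days 30 to 56: relative to the mean of days 0 to 10 the difference was 0.57 and 0.61 at day 14, 2.61 and 4.02 at day 18, and 2.61 and 4.39 at day 20. The signals of Pgk2 itself at day 14 (9.2 and 7.1) lay within its 1.8 to 9.6 of days 0 to 10. For Pgam2 and Pgam1 it was 0.44 and 0.17 at day 14, 5.34 and 7.53 at day 18, and 7.37 and 7.45 at day 20. For Aldoart2 and Aldoa it was 1.03 and 0.37 at day 14, 1.34 and 0.64 at day 18, and 0.63 and 1.41 at day 20. All of these but the second of day 14 lay above the highest early value (0.39), on the days when Aldoa read lowest. The samples of days 18 and 20 did not differ in one way. Sample 2 was above sample 1 in Pgk2 and in summed spermatocyte markers on both days, but in Pgam2 it was above at day 18 and below at day 20. Summed Sertoli cell markers were lower in sample 2 at day 18 (3103.0, with 4301.1 in sample 1) and higher at day 20 (3298.4, with 2226.1 in sample 1). Hk1 was lower in sample 2 on every day from 0 to 20.

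**Figure D3:**
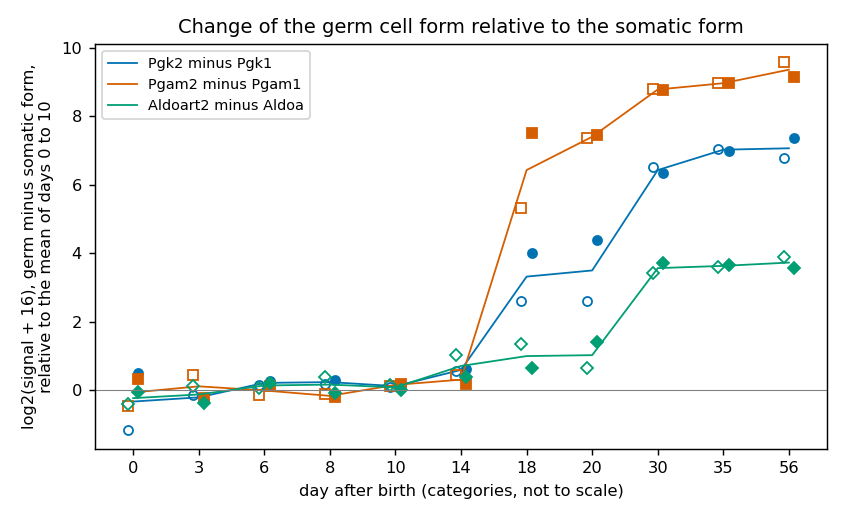
Per-array difference in log2(signal + 16) between germ cell and somatic form on array type A, relative to its mean over days 0 to 10, by day after birth; open and filled symbols are samples 1 and 2, and lines join day means. Pgk2 minus Pgk1 is already above its early range at day 14 (0.57 and 0.61, highest early value 0.51), Pgam2 minus Pgam1 leaves its early range at day 18, and Aldoart2 minus Aldoa reaches its late level at day 30.

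The day at which each germ cell form rose can be read beside the marker sums. Spermatocyte markers summed to 1426.8 and 1370.2 at day 14 and 2475.0 and 3022.5 at day 18, and spermatid markers to 250.7 and 364.4 at day 20 and 32673 and 36469 at day 30. The signals of Pgam2 and Pgk2 left their low level between days 14 and 18, and Gapdhs and Aldoart2 between days 20 and 30. No day between 20 and 30 was sampled.

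The genes most like each germ cell form were taken by correlation of log2(signal + 16) across the 22 type A arrays. For Pgk2 they were Zscan12, Cdkn3, Slc16a7, Tekt2 and Rnf19a (Pearson's r 0.992 to 0.988), and for Pgam2 Fam50b, Cct6b, Tcp11, Muc3 and Elof1 (0.995 to 0.989). For the r-suffixed Gapdhs probe set they were Gsg1, Hils1, Prm3, Capza3 and Isg20 (0.995 to 0.994), and for the unsuffixed one Selenov, Tsks, Isg20, Chrne and Apoh (0.994 to 0.991). For Aldoart2 they were Chrne, Gsg1, Chl1, Prm3 and Isg20 (0.994 to 0.991). Hils1 and Prm3 encode chromatin proteins of spermatids and Capza3 an actin-capping protein of the sperm head. These coefficients describe the same arrays, and between 188 and 431 probe sets had r over 0.9 with each form, so the likeness is not special to the genes named.

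The remaining enzymes of glycolysis moved in both directions. Of 25 genes listed, 19 were tested with 1 probe set each, and on days 30 to 56 against days 0 to 10, 6 were called higher (31.6%) and 3 lower (15.8%). Over all 13472 genes 14.9% were called higher and 20.6% lower. The median change of the 19 was 0.61, against -0.24 over all genes.

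Lactate dehydrogenase showed the widest range. Ldhc, the sperm form, read 7466 to 11288 on days 30 to 56 and 1.6 to 184.6 (median 3.85) on days 0 to 10. Its rise of 8.32 ± 0.38 is given with no p, since that early median lay near background. It was already called higher between days 8 and 14, where no member was. Ldha, the muscle-type subunit, read 2608 to 2921 on days 30 to 56 and 205.5 to 1005.8 on days 0 to 10 and rose by 2.65 ± 0.15. Ldhb, the heart-type subunit, fell by 1.19 ± 0.16 on the log2 scale, which was under 2-fold after median scaling (-0.97).

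Phosphofructokinase, which commits sugar to glycolysis, parted by subunit: the platelet form Pfkp rose by 2.59 ± 0.21 and the muscle form Pfkm by 1.39 ± 0.14, while the liver form Pfkl fell by 1.14 ± 0.14 on the log2 scale. Pfkp read 203.6 to 270.7 on days 30 to 56 and 4.2 to 50.6 on days 0 to 10, and Pfkl read 92.6 to 200.9 on days 30 to 56 and 243.0 to 568.2 on days 0 to 10. The Pfkl call was lost with median scaling (-0.92) and with a pseudocount of 64 (-0.94). Eno3, the muscle enolase, rose by 1.53 ± 0.14, with 270.6 to 321.3 on days 30 to 56 and 71.6 to 129.4 on days 0 to 10, while the skeletal muscle marker sums overlapped. Eno4, the enolase of the sperm tail, had a change of 0.72 and was not called. Tpi1, triosephosphate isomerase, rose by 1.17 ± 0.18, a call lost with quantile normalization (0.93). Its ranges overlapped, with 1096.2 to 1275.9 on days 30 to 56 and 329.5 to 1262.5 on days 0 to 10. Hk2, the insulin-regulated hexokinase, fell by 1.5 ± 0.12 on the log2 scale, beside the fall of Hk1.

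For the steps that feed and drain the pathway, 34 genes of sugar and lactate transport, pyruvate entry and side paths were listed and 30 tested. Of these, 9 were called higher (30%, against 14.9% of all genes) and 7 lower (23.3%, near the 20.6% of all genes). Slc16a7, Slc2a5 and G6pd2, all called higher, did not exceed 13.0, 47.7 and 39.3 on days 0 to 10. They passed the filter only through later days and had to differ, so the count of 9 is a description. The median change of the 30 genes, -0.29, was near the -0.24 of all genes. Fbp1, a gluconeogenic phosphatase that opposes phosphofructokinase, rose by 7.03 ± 0.19, with 3754 to 5417 on days 30 to 56 and 4.7 to 68.2 on days 0 to 10. Slc16a7, a carrier of lactate and pyruvate, rose by 6.12 ± 0.18, with 1211 to 2111 on days 30 to 56 and 1.6 to 13.0 on days 0 to 10. Gpd2, the mitochondrial glycerol phosphate dehydrogenase, rose by 4.91 ± 0.21, and its probe set carries a suffix for related transcripts.

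Glucose transporters and pyruvate dehydrogenase subunits held genes of both directions. Slc2a3, a high-affinity glucose transporter, rose by 4.81 ± 0.18 and Slc2a5, a fructose transporter, by 3.54 ± 0.23, while the ubiquitous glucose transporter Slc2a1 fell by 1.38 ± 0.17 on the log2 scale, with 7.6 to 18.5 on days 30 to 56 and 25.4 to 73.1 on days 0 to 10. The Slc2a1 call was lost with a pseudocount of 64 (-0.65) and with a floor of 32 (-0.71). Pdha2, the autosomal testis form of the pyruvate dehydrogenase E1 alpha subunit, rose by 4.71 ± 0.13, and its X-linked partner Pdha1 fell by 2.22 ± 0.20 on the log2 scale. Pdha2 read 1040 to 1635 on days 30 to 56 and 11 to 58 on days 0 to 10, and Pdha1 read 6.6 to 51.4 on days 30 to 56 and 153.4 to 233.0 on days 0 to 10.

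Of the glycogen phosphorylases, the liver form Pygl fell by 2.10 ± 0.23 and the brain form Pygb fell by 1.47 ± 0.14 on the log2 scale. Pdk1, a kinase that switches off pyruvate dehydrogenase, fell by 1.25 ± 0.11, while Pdk2 of the same family rose by 2.35 ± 0.24, and Pdhb, the E1 beta subunit, fell by 1.15 ± 0.20. Pdhb read 621.6 to 1090.2 on days 30 to 56 and 609.9 to 2579.4 on days 0 to 10, and these ranges overlapped. The Pdhb call was lost with median scaling (-0.82) and without the first sample of day 0 (-0.96), and the Pdk1 call with a pseudocount of 64 (-0.91).

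**Figure D4:**
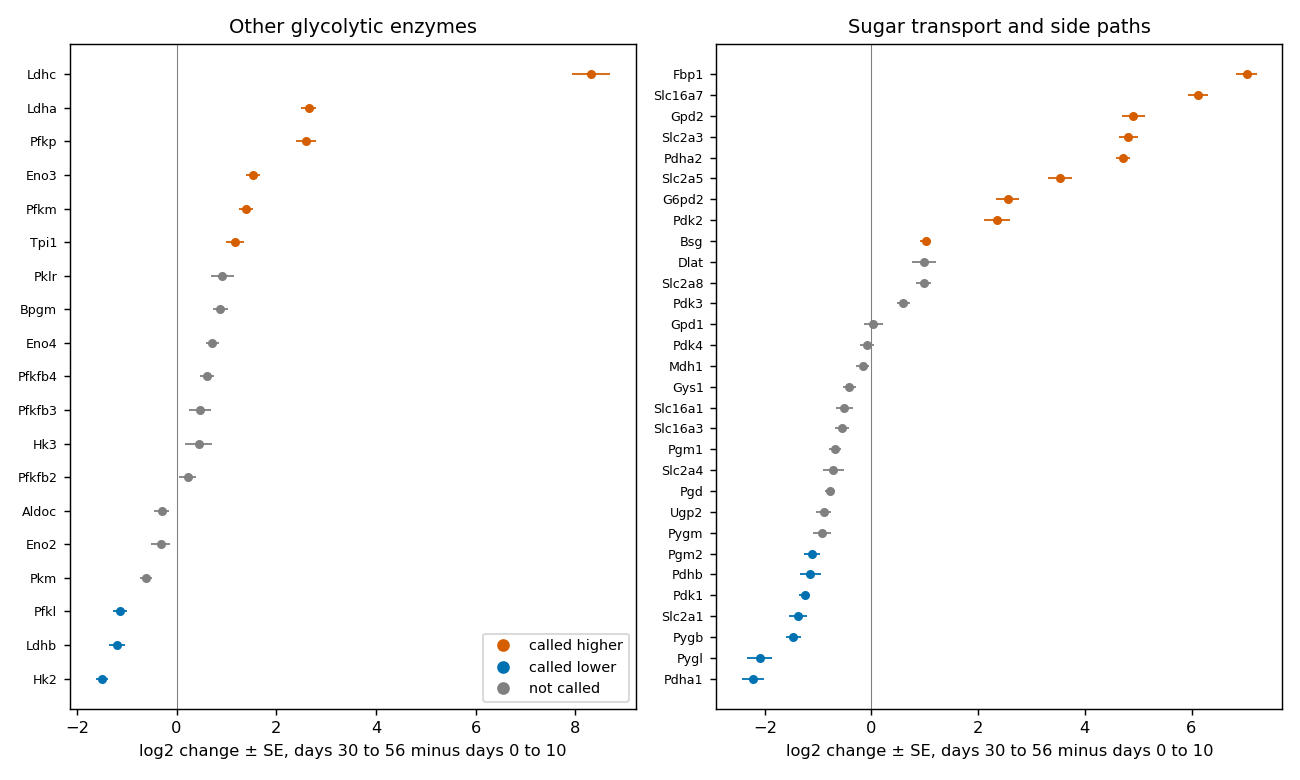
Log2 change ± SE on days 30 to 56 minus days 0 to 10 for each tested gene of the 19 other glycolytic enzymes (left) and the 30 genes of sugar transport and side paths (right); orange genes were called higher, blue genes lower and grey genes were not called. Ldhc (8.32) and Fbp1 (7.03) stand at the high ends, Hk2 (-1.5) and Pdha1 (-2.22) at the low ends.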

How the data were processed

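The deposited values are linear signal intensities, 1 for each probe set of an array, which the authors scaled to a mean of 125 per the labels, and the software is not given in the sources used here. Probe sets were named with the platform annotation, and the upstream sequences come from RefSeq (GRCm38.p6). Signals were taken as log2(signal + 16). Fits were made by array type in R 4.3.3 with limma 3.58.1 (lmFit with a mean for each of 11 days, then eBayes with trend), two-sided, with Benjamini-Hochberg adjustment over all 26941 probe sets tested. The lists used 1 probe set a gene, that of highest mean signal, and pairs used the brightest probe set. Pair tests were run in Python 3.11.15 over all 8008 divisions. The methods were tested on simulated data. Detection calls were not used, so the number of arrays and the signal level limit the precision. The members, lists, motifs and tests were chosen with earlier results of these data known, and CG counts were added after the motif search. Named genes were all members, up to 6 called genes each way per list by size of change, and the 5 genes most correlated with each germ cell form. Eno4, Pdk2 and G6pd2 were named after their values were seen. Alternatives were other pseudocounts, floors, filters, scalings, probe set choices, a replicate block and each sample left out.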

Additional observations from a re-analysis of the deposited data

How the results depend on the processing

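Of 1946 values recomputed under 34 settings, 1921 were labelled the same, 17 weaker, 7 stronger and 1 reversed. These values were changes of members and list genes, movements of pairs, and counts of called members or list genes. A change was the same if it kept direction and call, and a count if it stayed near its main value. A pair movement was the same if it kept its direction and an adjusted p under 0.05. Window changes of members that were not called are outside this tally; of their 1417 values under alternatives, 34 had the opposite sign and none of these was called. Of the 563 changes of member probe sets among the 1946 values, 555 kept both direction and call, and of the 710 changes of list genes 701 did. The tally includes the changes of Pgk2, Pgam2 and the unsuffixed Gapdhs probe set, and the pairs of Pgk2 and Pgam2. Those had to differ on days 30 to 56 against days 0 to 10, so their sameness there is no support. The change of the brighter Aldoa probe set on days 30 to 56 against days 0 to 10, not called, turned to -0.19 with quantile normalization. The members called lower between days 35 and 56 were 1 with a pseudocount of 64 and 1 with a floor of 32 (the unsuffixed Gapdhs probe set in both). Those called higher between days 20 and 35 were 3 with suffixed probe sets left out, since fewer were then tested. When each sample was left out in turn, members called lower ranged from 0 to 1 in the windows of days 0 to 8 (1 without the second sample of day 0, Pgk1), 14 to 20 and 20 to 35; otherwise the cause was not tested. For lists, 4 genes of transport and side paths were called lower with a pseudocount of 64 against 7, and 1 other glycolytic enzyme with median scaling against 3. Pair movements ranged from 5.0 to 8.82 for Pgk2 and Pgk1, 7.06 to 11.3 for Pgam2 and Pgam1 and 2.89 to 4.05 for Aldoart2 and Aldoa, with the exact permutation p of the last between 0.000125 and 0.000333; it had no value with suffixed probe sets left out.

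With the sample number as a replicate block, 5 members were called higher and 2 lower on days 30 to 56 against days 0 to 10 and 10 over all days, and no other count of members changed. The correlation of the sample differences between days was -0.16 to 0.48 on type A (23 of 55 over 0.1), -0.0018 to 0.36 on type B (32 of 55) and -0.059 to 0.26 on type C (19 of 55), and it was not over 0.1 for every pair of days on any type, so the numbers were not taken to pair the samples. Signals near 0 on the early days limit how well the folds of Pgk2, Pgam2 and Gapdhs are known.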
